A study of Caenorhabditis elegans with 16 samples.

Results

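Aspartic protease genes of the asp family, 9 in number (asp-1, asp-2, asp-3, asp-4, asp-5, asp-6, asp-10, asp-13 and asp-14), were followed through hypodermis and intestine of C. elegans larvae, among 19974 named genes with a score in every group. The members were chosen by gene name, with earlier results of these data known. Under an asp name 8 of the 9 were found, and asp-10 is listed as hrg-7, the symbol that RefSeq gives to the product aspartic protease 10. Each gene has 1 score per group, so no value has a replicate check and no difference between groups could be tested.

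The series profiled RNA polymerase by RAPID, a DamID method in which RPB-6, a subunit of the polymerase, carries the bacterial methyltransferase Dam and leaves adenine methylation at GATC sites along its path. A fusion of GFP to Dam, run in parallel, reports how accessible the same sites are. The groups were wild type (WT) and baf-1(G12T), each in hypodermis and in intestine, with 2 replicates of each fusion in each of the 4 groups, 16 libraries in all. Animals were collected at larval stage L4 after 48 h at 20 °C on Dam-deficient Escherichia coli GM119, 4000 larvae per strain. The baf-1(G12T) animals carry an edit of the endogenous baf-1 gene that changes BAF-1, a chromatin protein of the nuclear envelope, at the residue altered in human Nestor-Guillermo progeria. All groups, controls included, carry a Dam fusion under a heat shock promoter that is active only where FLP recombinase has cut out a blocking cassette. In the hypodermal strains FLP was driven by the dpy-7 promoter and in the intestinal strains by that of nhx-2, so "tissue" means the cells in which those promoters had been active, and DNA came from whole animals.

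Aspartic proteases of the pepsin and cathepsin D type cut proteins at acidic pH, with a pair of catalytic aspartates that each sit in a short motif of aspartate, threonine or serine, and glycine. They are made as inactive precursors and work in the gut lumen or in lysosomes. In C. elegans the intestine both digests bacteria and stores nutrients, its cells are rich in lysosome-related granules, and its genes are controlled largely by GATA factors such as ELT-2. ASP-1 is known as an intestinal protease, ASP-3 and ASP-4 are the cathepsin D-like enzymes known for their part in necrotic death of neurons, and HRG-7 (ASP-10) is known as a secreted signal of intestinal heme status.

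The GATC sites that the assay reads lie inside these genes, at the catalytic codons in most of them. In WBcel235, 8 of the 9 coding sequences hold at least 1 codon run for the catalytic motif. Only 1 was found in asp-10 and in asp-13, and asp-14 holds none. In asp-1, asp-2, asp-3, asp-5, asp-6 and asp-13 the first such run contains a GATC site, formed by the glycine codon and the serine codon after it, whereas asp-4 and asp-10 lack it. The runs with GATC are shown because they are at once the active site and a place where methylation is measured. Those of asp-4 and asp-10 are set beside them. Each starts 12 bases before the 9-base motif and ends 18 bases after it, with GATC in capitals.
asp-1 at chrV:19050471-19050509 (minus): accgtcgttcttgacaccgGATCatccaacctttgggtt
asp-2 at chrV:9203340-9203378 (plus): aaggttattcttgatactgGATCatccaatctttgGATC
asp-3 at chrX:6791517-6791555 (plus): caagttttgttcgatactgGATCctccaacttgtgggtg
asp-5 at chrV:8272645-8272683 (plus): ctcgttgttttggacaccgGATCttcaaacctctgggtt
asp-6 at chrV:8268645-8268683 (minus): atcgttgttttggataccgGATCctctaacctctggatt
asp-13 at chrV:8642897-8642935 (minus): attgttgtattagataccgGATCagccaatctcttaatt
asp-4 at chrX:13220441-13220479 (minus): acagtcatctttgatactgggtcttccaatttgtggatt
asp-10 at chrV:12742367-12742405 (plus): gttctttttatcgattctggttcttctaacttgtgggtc

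The authors' tables count 8 to 13 GATC fragments for 8 of the members (8 in asp-1 and asp-6, 10 in asp-5, 12 in asp-3 and asp-13, 13 in asp-2, asp-4 and asp-14). Only 3 fragments were counted in asp-10, whose score therefore rests on the fewest sites. For 19252 of the 19406 genes placed on WBcel235 (99.2%), the number of fragments equalled the number of GATC sites in the annotated span plus 1. Of stretches of 30 bases in the members' spans, between 0% (asp-3, asp-4 and asp-13) and 1.57% (asp-6) also occurred elsewhere in the genome, except for asp-14 with 5.47%. Few stretches of that length could therefore have come from another copy.

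The score is the authors' log2(Dam::RPB-6/GFP::Dam) of a gene. The authors first normalized the reads of Dam::RPB-6 to those of GFP::Dam, so 0 means equal signal of both fusions after that step. A gene was called expressed where the authors' false discovery rate (FDR) was under 0.05. The score is a ratio, so a negative value does not tell whether Dam::RPB-6 was low or GFP::Dam was high. Since each tissue gives 1 score, a change in the share of cells that use a gene and a change per cell cannot be told apart. Over all named genes the score had a median of -0.07 to -0.02 in the 4 groups and a standard deviation (SD) across genes of 0.23 in WT hypodermis, 0.30 in baf-1(G12T) hypodermis, 0.26 in WT intestine and 0.20 in baf-1(G12T) intestine. Of 12 intestinal marker genes, 3 were called expressed in WT intestine (act-5, ifb-2 and vha-6) and 6 in baf-1(G12T) intestine, against 0 and 1 in the hypodermis of the same genotypes; the intestinal esterase gene ges-1 and the GATA factor gene elt-2 were called in none of the groups. Of 12 hypodermal markers, 8 and 7 were called in WT and baf-1(G12T) hypodermis, against 4 and 0 in intestine. Among all named genes, 9.81% and 7.53% were called in WT and baf-1(G12T) hypodermis, and 7.94% and 10.5% in intestine.

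In WT intestine 7 of the 9 genes were called expressed (7.94% of all named genes were), and 6 of the 7 scored at or above 0.92. The score was 2.14 for asp-1, 1.85 for asp-2, 1.62 for asp-13, 1.32 for asp-6, 1.18 for asp-3, 0.92 for asp-5 and 0.32 for asp-4. Ranked among the 19974 genes, asp-1 was 17th, asp-2 32nd, asp-13 43rd, asp-6 79th, asp-3 99th, asp-5 176th and asp-4 739th. The other two were near the median of all genes, with -0.09 for asp-14 and -0.22 for asp-10, and were not called (FDR of 0.272 and 0.29). The median over the 9 genes was 1.18, against -0.07 over all genes. With no replicate values, neighbours in this order cannot be said to differ.

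**Figure D1:**
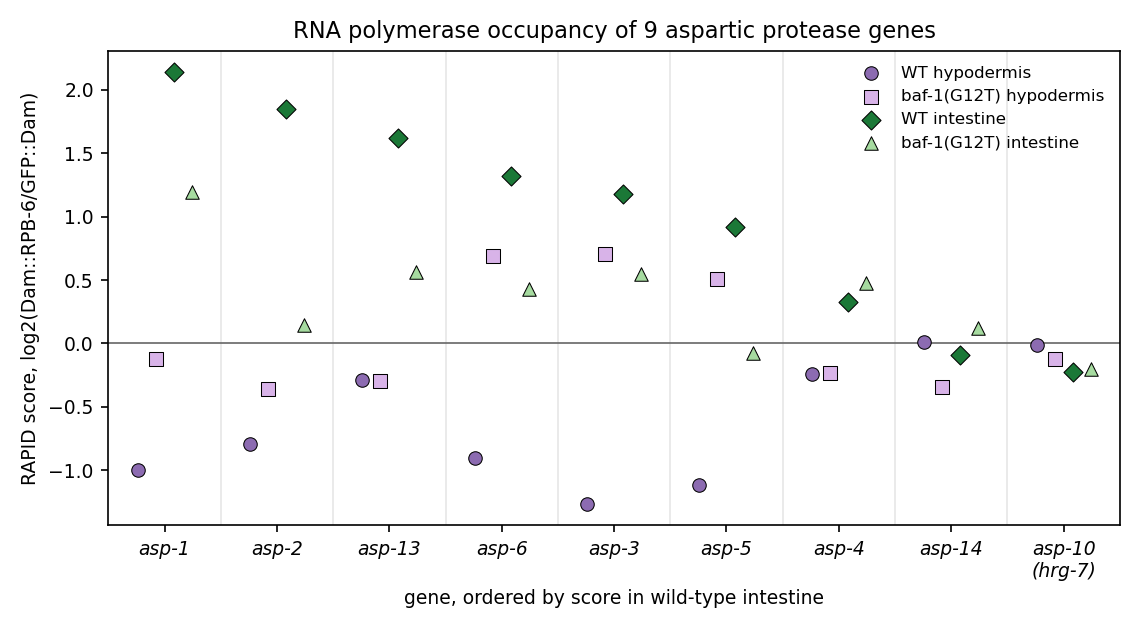
RAPID score of each aspartic protease gene (y axis, log2 of Dam::RPB-6 over GFP::Dam) in the 4 groups, 1 symbol per group, genes ordered along the x axis by their score in WT intestine. In WT intestine 6 genes lie at or above 0.92, and 5 of these 6 lie at -0.80 or below in WT hypodermis; each symbol is 1 deposited value without an error.

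In WT hypodermis none of the 9 genes was called expressed (9.81% of all named genes were). For asp-3 the score was -1.26, for asp-5 -1.12, for asp-1 -0.997, for asp-6 -0.90 and for asp-2 -0.80. These 5 stood among the 27 lowest of the 19974 genes, asp-3 at place 3 from the bottom, asp-5 at 6, asp-1 at 12, asp-6 at 17 and asp-2 at 27. They had 8 to 13 fragments each. The remaining 4 lay closer to the median, with -0.29 for asp-13, -0.24 for asp-4, -0.01 for asp-10 and 0.01 for asp-14. The hypodermal median over the 9 genes was -0.80, against -0.04 over all genes.

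Between the tissues of WT animals, 6 of the 9 genes scored more than 1 higher in intestine (over 2-fold), a size reached by 0.616% of all named genes, and none was more than 1 lower (1.26% of all). Above 0 was the difference of 7 of the 9 (34.9% of all genes) and below 0 that of 2 (64.1%). The share of all genes below 0 was 46.0% after centring each table on its median and 42.1% after quantile normalization, with the same 7 and 2 members. The difference was 3.14 for asp-1, an 8.79-fold higher ratio and the highest of the 19974 genes. It was 2.64 for asp-2 (rank 3), 2.44 for asp-3 (rank 8), 2.23 for asp-6 (rank 10), 2.04 for asp-5 (rank 15) and 1.91 for asp-13 (rank 20). For asp-1, asp-2, asp-3, asp-5 and asp-6 both tissues contributed, a score well above 0 in intestine and one well below 0 in hypodermis. For asp-13 the difference lay almost wholly on the intestinal side. The smaller differences were 0.56 for asp-4, -0.10 for asp-14 and -0.21 for asp-10. Among 6147 genes with 8 to 15 fragments, as most of the members have, 0.667% were more than 1 higher in intestine, and the share lay between 0.477% and 0.684% for genes with fewer or more fragments.

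In intestine, baf-1(G12T) animals had lower scores than WT for 6 of the 9 genes (32.3% of all named genes were lower, 56.4% after centring and 61.2% after quantile normalization). These 6 are the ones with the highest scores in WT. The score of asp-2 was 1.85 in WT and 0.15 in baf-1(G12T), which is a change of -1.70, the 15th lowest of all genes. It was 1.62 and 0.56 for asp-13 (-1.06), 0.92 and -0.07 for asp-5 (-0.99), 2.14 and 1.20 for asp-1 (-0.94), 1.32 and 0.43 for asp-6 (-0.90), and 1.18 and 0.55 for asp-3 (-0.63). Quantile normalization, which gives all tables the same spread, reduced the change of asp-1 to -0.18, and the other 5 changes were then -1.61 to -0.51. More than 1 lower were thus 2 of the 9, asp-2 and asp-13 (0.451% of all genes), and more than 1 higher 0 of the 9 (0.556%). The call of expression was absent in the mutant for asp-5 (FDR of 0.637) and present for 6 genes, asp-1, asp-2, asp-3, asp-4, asp-6 and asp-13 (10.5% of all named genes). With a score of 1.20, asp-1 ranked 27th in the mutant, whereas asp-2 ranked 2297th and was called with an FDR of 0.0376, near the threshold.

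The other 3 of the 9 were higher in the mutant (66.7% of all genes, 43.6% after centring), each by less than 1. The score of asp-4 was 0.32 in WT and 0.48 in mutant intestine, that of asp-14 was -0.09 and 0.12 with an FDR of 0.0531 in the mutant, and that of asp-10 was -0.22 and -0.20. The change of asp-10, 0.03, was -0.02 after centring and -0.07 after quantile normalization. By sign, asp-4, which encodes a lysosomal cathepsin D-like enzyme, and asp-3, which encodes the other one, differed in their change. The change of asp-4, 0.16, was however smaller than the SD of this change over all genes (0.25), so no contrast is drawn from it.

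Lower scores in mutant intestine were also the rule among other genes with high scores in WT. Of the 170 other genes that scored at or above asp-5 in WT intestine, 163 were lower in the mutant and 64 were more than 1 lower (37.6%), with a median change of -0.80. Of the 732 other genes at or above asp-4, 653 were lower, with a median change of -0.44. After quantile normalization 139 of the 170 were lower, with a median change of -0.62. These genes were picked by the same WT score from which the change is taken, and the comparison was chosen after the scores had been seen. The changes of asp-1, asp-3, asp-5, asp-6 and asp-13 lay between -1.06 and -0.63, within the range of -1.56 to -0.22 between the percentiles 10 and 90 of the 170 genes, and asp-2 lay below it.

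**Figure D2:**
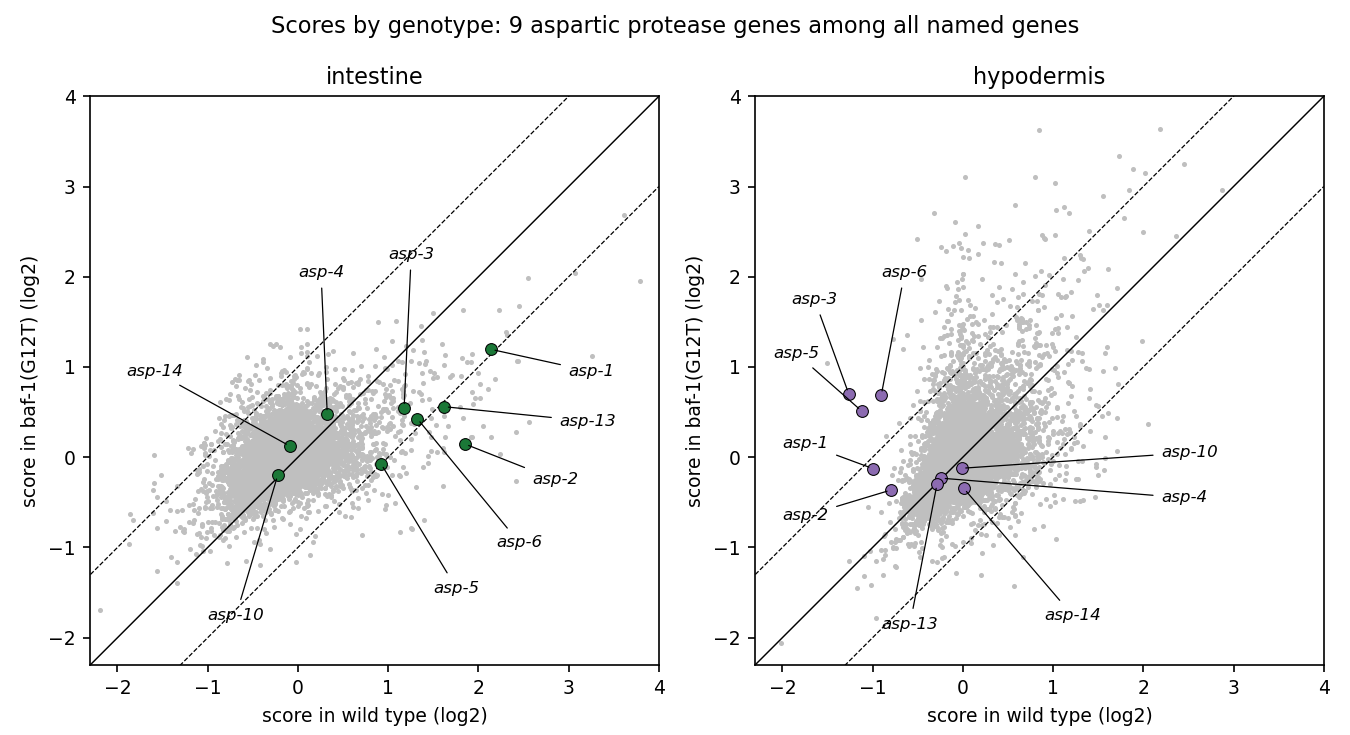
Score in WT (x axis) against score in baf-1(G12T) (y axis), both log2, for intestine (left) and hypodermis (right); grey points are the 19974 named genes, coloured points the 9 aspartic protease genes, the solid line marks equal scores and the dashed lines a difference of 1. In intestine asp-2 and asp-13 fall below the lower dashed line, and in hypodermis asp-3, asp-5 and asp-6 lie above the upper one, at the left edge of the cloud.

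In hypodermis 3 of the 9 genes scored more than 1 higher in baf-1(G12T) than in WT (1.06% of all named genes did). Higher by any amount were 6 of the 9, a share near that of all genes (60.3%). The 3 were asp-3 (-1.26 in WT and 0.70 in the mutant, a change of 1.97), asp-5 (-1.12 and 0.51, 1.63) and asp-6 (-0.90 and 0.69, 1.59), which ranked 33rd, 58th and 61st among all genes. They passed from the bottom of the WT table to places 554 (asp-3), 567 (asp-6) and 812 (asp-5) of the mutant table. They were also the 3 of the 9 genes called expressed in mutant hypodermis (7.53% of all named genes were), with FDR of 0.000375 for asp-3, 0.00271 for asp-6 and 0.00533 for asp-5. By the study's read counts, the first Dam::RPB-6 library of this group had the fewest reads at GATC sites of the 16 libraries. The second library of this group had the most. The part of this imbalance in the scores was not tested. Higher by less than 1 were asp-1, with -0.997 in WT and -0.13 in the mutant (0.87), and asp-2, with -0.80 and -0.36 (0.43).

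In hypodermis the scores of asp-4 (0.01), asp-13 (-0.01), asp-10 (-0.11) and asp-14 (-0.35) changed by less than 1 in either direction, and 3 of these were lower in the mutant (38.8% of all genes). The changes of asp-4 and asp-13 were too small to have a direction, that of asp-4 being -0.01 after centring and that of asp-13 0.02 after quantile normalization. None of the 9 was more than 1 lower (0.486% of all genes). Among the 22 other genes with WT hypodermal scores at or below that of asp-2, 9 were higher and 13 lower in the mutant, 2 were more than 1 higher (9.09%), and the median change was -0.03. After quantile normalization 15 were higher and 6 lower, with a median change of 0.16 and again 2 more than 1 higher. This set, too, was chosen after the scores had been seen, and by the same WT score from which the change is taken. Its genes were not matched to the members by number of fragments. The 2 that were more than 1 higher have 1 and 7 fragments, whereas the 5 lowest members have 8 to 13.

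In the mutant the difference between tissues was smaller for the 6 genes past 1 in WT. Only asp-1 of the 9 genes scored more than 1 higher in intestine than in hypodermis of baf-1(G12T) animals (0.546% of all genes), with a difference of 1.32 (rank 23). The difference was 0.86 for asp-13, 0.71 for asp-4, 0.51 for asp-2 and 0.47 for asp-14. For asp-10 it was -0.08, for asp-3 -0.15, for asp-6 -0.26 and for asp-5 -0.58, but after quantile normalization it was 0.17 for asp-3 and 0.01 for asp-6, so of these 3 only asp-5 stayed below 0 (-0.49). None was more than 1 lower (1.53% of all genes). In the mutant 5 of the 9 were thus higher in intestine (42.8% of all genes) and 4 lower (56.3%), or 7 and 2 after quantile normalization. The tissue differences and the genotype changes are computed from the same 4 scores per gene and are not separate observations.

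**Figure D3:**
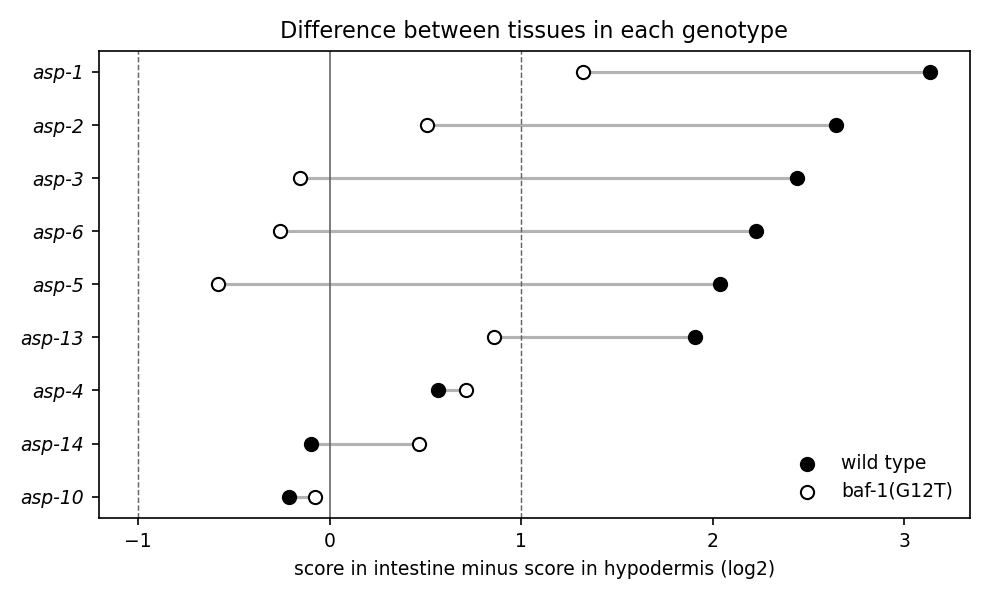
Score in intestine minus score in hypodermis (x axis, log2) for each gene (y axis) in WT (filled) and baf-1(G12T) (open); grey bars join the genotypes and dashed lines mark a difference of 1. Filled points lie beyond 1 for 6 genes, and the only open point beyond 1 is that of asp-1.

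Low in WT hypodermis, high in WT intestine and in between in both mutant tissues were asp-1, asp-2, asp-3, asp-5 and asp-6. Of these, the trio of asp-3, asp-5 and asp-6 rose by more than 1 in mutant hypodermis and was called expressed there. Nearest to asp-3 over the 4 scores, among genes with at least 4 fragments, were asp-6 (Euclidean distance of 0.41) and asp-5 (0.71), and nearest to asp-6 and asp-5 were the other two members of the trio. The neighbours of asp-1 were acdh-1 (0.64), an acyl-CoA dehydrogenase gene, and act-5 (0.69), the actin gene of the intestinal brush border. Those of asp-2 were R08D7.5 (0.47) and T05A8.8 (0.48). Those of asp-13 were pas-2 (0.33), a proteasome subunit gene, and lys-1 (0.39), a lysozyme gene. For asp-4 they were bcs-1 (0.08), which encodes a mitochondrial assembly factor, and W09D10.1 (0.10). Such likeness over 4 values is a description and does not separate genes that share regulation from others.

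Of the trio, asp-5 and asp-6 lie on chromosome V, with asp-12 between them, and asp-3 lies on the X chromosome. In WBcel235, asp-6 is at chrV:8267511-8268937 on the minus strand, asp-12 at chrV:8269210-8272056 on the plus strand and asp-5 at chrV:8272385-8274044 on the plus strand. The gap is 272 bases between asp-6 and asp-12, which are transcribed away from each other, and 328 bases between asp-12 and asp-5. None of the GATC fragments is shared between these genes. The score of asp-12 was -0.23 in WT hypodermis, 1.33 in mutant hypodermis, -0.58 in WT intestine and 0.37 in mutant intestine. In hypodermis it was thus 1.56 higher in the mutant, close to asp-5 and asp-6, and called expressed there (FDR of 9.8e-06). In intestine it went the other way from its neighbours, 0.94 higher in the mutant and called expressed only there (FDR of 0.00598). Further out on either side, F21F8.5 next to asp-6 changed by 0.01 in hypodermis and 0.10 in intestine, and str-136 next to asp-5 by -0.37 and 0.00.

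**Figure D4:**
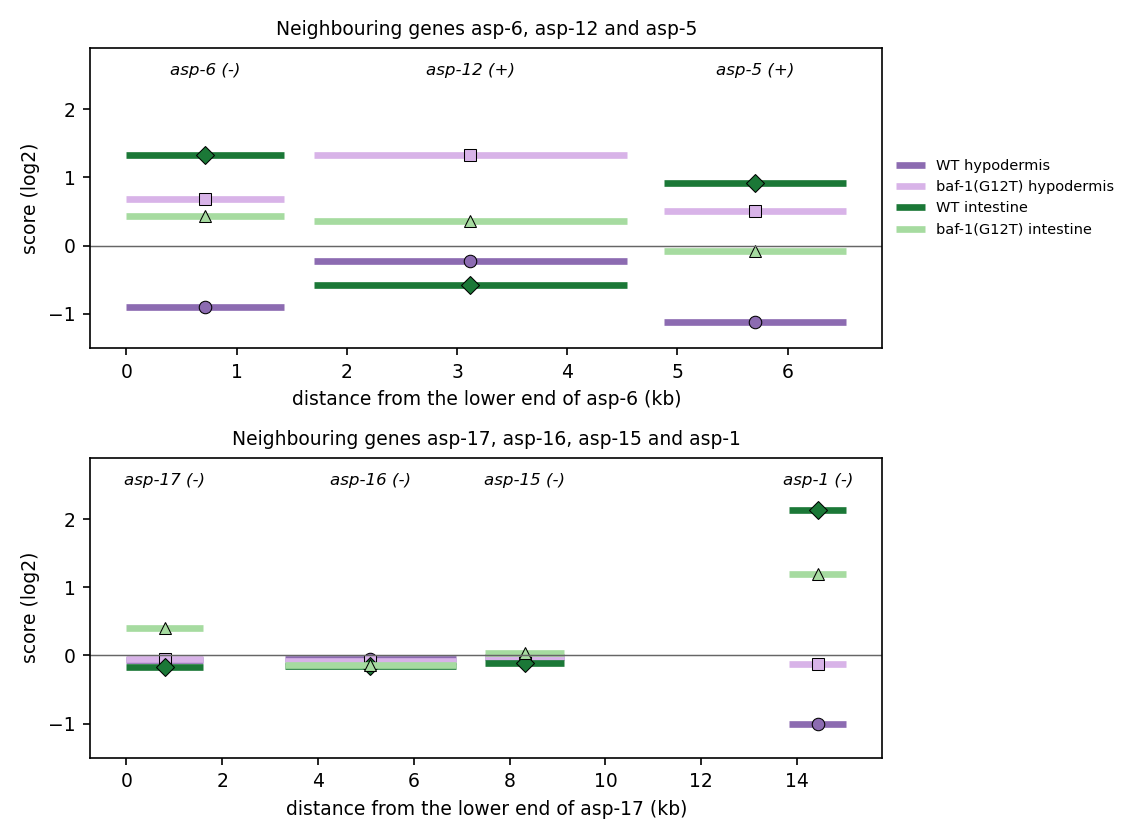
Scores (y axis, log2) of neighbouring aspartic protease genes, drawn as bars over each gene's span (x axis, distance in kb from the end of the first gene, strand in brackets) with 1 colour and symbol per group. In the upper panel the mutant hypodermal score is above the WT hypodermal one for asp-6, asp-12 and asp-5; in the lower panel asp-1 stands apart from asp-15, asp-16 and asp-17, which lie within 0.2 of 0 apart from asp-17 in mutant intestine.

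The neighbours of the other members were read in the same way. On chromosome V, asp-17, asp-16 and asp-15 precede asp-1 (chrV:19049562-19050752, minus strand), and their scores lay between -0.17 and 0.04 in all groups but for asp-17 in mutant intestine (0.41, FDR of 0.00271). The nearest gene on the other side of asp-1, twk-46, scored -0.19 to -0.10. On either side of asp-3 (chrX:6791064-6792709, plus strand), sgca-1 scored -0.24 to -0.17 and M03A8.3 -0.02 to 0.02. The innexin gene inx-10 overlaps asp-2 (chrV:9203077-9204734, plus strand) by 74 bases and shares 1 fragment with it; it scored -0.68 and -0.67 in WT and mutant hypodermis and 0.16 and -0.17 in intestine. On the other side of asp-2, str-177 scored -0.17 to -0.05. Next to asp-4 (chrX:13218985-13221462, minus strand), R12H7.4 scored -0.22 to 0.09 and skr-20 -0.61 to -0.12. Next to asp-10 (chrV:12742041-12744171, plus strand), cky-1 scored -0.14 to -0.07 and C15C8.7 -0.55 to -0.16.

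On one side of asp-13 (chrV:8641602-8643193, minus strand), F28A12.3 scored -0.38 to 0.13. On the other, 22871 bases away, ZC190.4 was called expressed in all groups, with 0.73 in WT and 0.84 in mutant hypodermis and 0.81 and 0.34 in intestine, so its intestinal score was also lower in the mutant (-0.47). Next to asp-14 (chrX:6444185-6446664, minus strand), K10C2.7 scored 0.57 and fah-1 0.30 in WT hypodermis, where both were called, and -0.30 to 0.06 in the other groups. Single fragments are shared between asp-4 and R12H7.4, asp-13 and F28A12.3, asp-14 and fah-1, and asp-10 and C15C8.7.

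The 250 bases before each gene's annotated start were read for TGATAA, on either strand (TTATCA on the other), a core sequence bound by intestinal GATA factors. In C. elegans the annotated start is often a trans-splice site, so transcription may begin further upstream, and that of asp-1 is the start of its coding sequence. At least 1 copy was found for 7 of the 9 genes (77.8%), against 26.7% of 19406 genes and 29.2% of the 1540 of these called expressed in WT intestine. Pairs of copies were found in asp-6 and asp-13. The windows of asp-1 and asp-3 held none, although these genes ranked 17th and 99th in WT intestine, and those of asp-14 and asp-10, which scored near 0, held 1 each. Presence of the letters in this window therefore did not separate the members with high scores from the others. The windows of the trio and of the highest scorer follow, with the motif in capitals, for asp-6 at chrV:8268938-8269187 (minus strand, filling most of the gap to asp-12), asp-5 at chrV:8272135-8272384 (plus), asp-3 at chrX:6790814-6791063 (plus) and asp-1 at chrV:19050753-19051002 (minus).
asp-6: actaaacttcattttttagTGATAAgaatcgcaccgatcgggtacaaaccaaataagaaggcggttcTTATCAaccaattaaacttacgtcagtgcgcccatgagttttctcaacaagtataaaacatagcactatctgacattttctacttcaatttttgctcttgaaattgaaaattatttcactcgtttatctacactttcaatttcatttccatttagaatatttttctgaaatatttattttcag
asp-5: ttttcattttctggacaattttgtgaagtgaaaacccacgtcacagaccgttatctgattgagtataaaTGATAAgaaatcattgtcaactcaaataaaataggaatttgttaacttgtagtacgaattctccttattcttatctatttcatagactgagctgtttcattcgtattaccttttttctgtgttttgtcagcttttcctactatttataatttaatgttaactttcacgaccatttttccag
asp-3: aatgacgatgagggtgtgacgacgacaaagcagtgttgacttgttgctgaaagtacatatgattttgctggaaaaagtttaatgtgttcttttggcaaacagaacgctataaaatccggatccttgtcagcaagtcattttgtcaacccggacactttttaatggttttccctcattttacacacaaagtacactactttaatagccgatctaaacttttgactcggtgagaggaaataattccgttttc
asp-1: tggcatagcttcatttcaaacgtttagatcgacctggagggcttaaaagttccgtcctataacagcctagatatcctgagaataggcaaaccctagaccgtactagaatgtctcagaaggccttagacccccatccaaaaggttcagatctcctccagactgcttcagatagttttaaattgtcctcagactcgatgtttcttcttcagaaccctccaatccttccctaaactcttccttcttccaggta

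The rest of the asp family, 9 further genes, scored near 0 for the most part. None was called expressed in WT hypodermis (9.81% of all named genes were) or in WT intestine (7.94%). In mutant hypodermis 1 was called, asp-12 (7.53% of all), and in mutant intestine 2 were, asp-12 and asp-17 (10.5%). Their scores in WT lay between -0.23 and -0.03 in hypodermis and between -0.58 and -0.01 in intestine, and only asp-12 changed by more than 1 in any comparison.

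Genes of acidic digestion and of lysosomes, 22 in a list of proteases, membrane proteins and regulators, gave a mixed picture beside the aspartic proteases. Called expressed were 3 of the 22 in WT hypodermis, 3 in mutant hypodermis, 9 in WT intestine and 11 in mutant intestine. Among all named genes the shares called were 9.81%, 7.53%, 7.94% and 10.5%, in the same order. More than 1 higher in intestine were 2 in WT (0.616% of all named genes) and 4 in the mutant (0.546%). More than 1 lower in intestine were 1 in WT, cpr-4 (1.26% of all), and 0 in the mutant (1.53%). The median change in mutant intestine was 0.10, with 14 genes higher and 8 lower, near the shares of all genes (66.7% and 32.3%). The cathepsin B-like gene cpr-6 was most like the proteases in WT, with -0.89 in hypodermis and 1.17 in intestine, but kept a low score in mutant hypodermis (-1.12) and was 1.79 higher in mutant intestine than there. Its relative cpr-5 scored -0.57 in hypodermis and 0.87 in intestine of WT, and 0.06 and -0.20 in the mutant, a change of -1.07 in intestine. Also cathepsin B-like, cpr-4 went the other way in intestine, with -0.65 in WT and 0.91 in the mutant. Its score was 0.39 in WT hypodermis, where it was called expressed (FDR of 0.0184), and -0.33 in mutant hypodermis. In hypodermis only ctns-1, the gene of the lysosomal cystine transporter, was more than 1 higher in the mutant (-0.37 and 0.86). The largest score of the list was that of hlh-30, the gene of the TFEB-like lysosome regulator, in WT hypodermis (0.44), of cpl-1, a cathepsin L-like gene, in mutant hypodermis (0.90), of cpr-6 in WT intestine and of vha-6, an intestinal proton pump gene, in mutant intestine (0.98). Pump and lysosomal membrane genes higher in mutant than in WT intestine included vha-6 (0.51 and 0.98) and lmp-1 (0.62 and 0.78).

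Intestinal marker genes were compared in the same groups. Over the 12 markers the scores ranged from -0.58 to 0.01 in WT hypodermis and from -0.64 to 0.21 in mutant hypodermis. Their median change in mutant hypodermis was -0.03, with 5 higher (60.3% of all genes) and 7 lower (38.8%) and none past 1. Their median change in mutant intestine was 0.17, with 10 higher (66.7% of all genes) and 2 lower (32.3%). In mutant hypodermis the highest changes were those of ifc-2, an intestinal filament gene (-0.35 in WT and 0.21 in the mutant, and called expressed), and act-5 (-0.58 and -0.07, not called). In mutant intestine they were those of cpr-1 (0.97) and vha-6 (0.47). There act-5 scored 1.59 in WT and 1.25 in the mutant, a change of -0.34. The part of these markers in the scores of the proteases was not tested. Over the 12 hypodermal markers the median change was 0.21 in mutant hypodermis, with 8 higher (60.3% of all genes) and 4 lower (38.8%). In mutant intestine it was 0.01, with 6 higher (66.7% of all genes) and 6 lower (32.3%). The 4 called in WT intestine were all among the lower ones. In WT and mutant intestine lon-3 scored 0.79 and -0.10, and dpy-13 0.80 and 0.01. For nhr-25 the scores were 0.20 and -0.17, and for lin-26 0.14 and -0.04. More than 1 higher in mutant hypodermis were 4 of the 12 hypodermal markers (1.06% of all genes), dpy-13 (1.65), rol-6 (1.53), lin-26 (1.20) and mua-6 (1.14). The part of these changes in the scores of the proteases was not tested either. In a set of 10 marker genes for muscle, neurons or germ line, the neuronal snb-1 was called in WT hypodermis, the muscle gene unc-15 in mutant intestine and none in the other groups.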

How the data were processed

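RAPID libraries from L4 larvae, 2 per fusion in each of 4 groups, were made from 200 ng of genomic DNA with 14 PCR cycles. They were processed by the authors, who kept reads with the DamID adapter at GATC sites, aligned them to ce11, used damidseq_pipeline to set Dam::RPB-6 against GFP::Dam and scored genes with polii.gene.call on WBCel235. The deposited score is on the log2 scale. The deposited FDR is a q-value of the call of transcription, and the authors' tables also give the count of GATC fragments per gene. The sources used here do not say how the replicates were combined into the deposited score. The study's rule for deregulated genes also asked for detection in both replicates, which cannot be applied to 1 score. The study reports the genes that passed its rule, and that list was not used here. Each group has 1 table, so the planned limma fits were not run, differences between scores are given without a test, and a difference of 1 (2-fold) served as the size rule. The score tables carry no read counts, so the reads behind a gene's score are unknown. The study lists reads per library, and these entered no calculation here.

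A table has 19985 rows, and the 11 without a gene name were not used. Members and gene lists were chosen with earlier results of these data known. The text names all 9 members, other asp genes called expressed or past a difference of 1, the 2 nearest genes by Euclidean distance for each member called in WT intestine (at least 4 fragments), the nearest protein-coding gene on each side, and the listed digestion and lysosome genes past 1 or highest in a group. Marker genes named beyond this rule were chosen after their values were seen. Spans, upstream windows of 250 bases and coding sequences were read from WBcel235 (RefSeq genome and coding annotation, Ensembl release 115 gene spans). Protein lengths and identities had been planned and were not computed. Other settings tried were an FDR threshold of 0.01 or 0.1, a score of at least 0.2, differences of 0.58 and 1.5, an FDR under 0.05 in at least 1 group compared, centring on the median and quantile normalization; genes of a like score in WT as background, and their counts and the members' signs under both scalings, were added after seeing the data. The code of the size rule was run on simulated data, in which 200 genes had a known change larger than the rule. The simulated noise was set by hand, so this run says nothing about the noise of these data. Tools were numpy 2.4.6, pandas 2.3.3 and matplotlib 3.10.9 under Python 3.11.15.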

Additional observations from a re-analysis of the deposited data

Results flagged for a closer look

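Of the 9 genes, 4 had a change between genotypes past 1 in at least 1 tissue and of opposite sign in the other, a difference that was not tested because each group has 1 score. The intestinal change (baf-1(G12T) minus WT) minus the hypodermal change was -2.62 for asp-5, -2.60 for asp-3, -2.49 for asp-6 and -2.13 for asp-2. For asp-3, asp-5 and asp-6 the part past 1 was the hypodermal one, and for asp-2 it was the intestinal one. Among all 19974 named genes, 113 (0.566%) were lower in mutant intestine and higher in mutant hypodermis with at least 1 of the changes past 1, and 124 (0.621%) had the reverse directions.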

How the results depend on the processing

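The counts of genes called expressed stayed within 1 of the reported count at FDR thresholds of 0.01 and 0.1 and with a minimum score of 0.2. More than 1 higher in intestine than in hypodermis was 1 gene in baf-1(G12T); the count was 3 at a difference of 0.58, 0 at a difference of 1.5 and 2 after quantile normalization. More than 1 lower in mutant than in WT intestine were 2 genes; the count was 6 at a difference of 0.58 and 1 at a difference of 1.5. The count of 6 genes more than 1 higher in WT intestine than in WT hypodermis was the same under every alternative run. Single differences crossed 1 in 5 cases: quantile normalization gave 1.03 for asp-1 between genotypes in hypodermis, 1.03 for asp-13 between tissues in the mutant, -1.07 for asp-5 and -0.86 for asp-13 between genotypes in intestine, and centring gave -1.04 for asp-5 in intestine. For these the cause was not tested. No difference past 1 changed sign under either scaling, and 67 of 72 kept their side of 1. Smaller differences did change sign: between tissues in the mutant asp-3 (0.17) and asp-6 (0.01) after quantile normalization, between genotypes in intestine asp-10 under both scalings (-0.02 and -0.07), and in hypodermis asp-4 after centring (-0.01) and asp-13 after quantile normalization (0.02). The intestinal change of asp-1 was -0.18 after quantile normalization, against -0.94. No paired analysis was possible because each table holds 1 score per gene, so neither a replicate block nor leaving out a replicate could be run. The reads behind each gene's score are unknown, and asp-10 rests on 3 fragments.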
